A study of Mus musculus with 8 samples.

Results

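Genes that remodel nucleosomes, write, remove or read marks on histones and DNA, or join transcription factors to RNA polymerase II were chosen from the array by symbol. The name patterns took the SWI/SNF (Smarc), CHD, histone deacetylase (Hdac), sirtuin (Sirt), histone demethylase (Kdm), histone methyltransferase (Kmt, Ezh, Setd, Ehmt, Suv), DNA methyltransferase (Dnmt), Cbx, Brd, Ing, histone (Hist), TBP-associated factor (Taf), Mediator (Med) and nuclear receptor cofactor (Ncoa, Ncor) families. They named 79 genes on the array, of which 52 had a ratio on at least 3 arrays of each genotype, among 3505 genes and unnamed features tested in the series. The choice used names and the number of arrays with a ratio, and no direction or size. Earlier results of these data were known when it was made. The patterns found 0 histone genes, and 0 Ncor and 0 Suv genes had a symbol of their own on a feature.

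The samples were cortical astrocytes cultured from neonatal mice, 4 wild type (WT) and 4 null for connexin43 (Cx43 KO). Connexin43 forms most of the channels through which astrocytes share ions and small molecules. The label of WT 1 gives C57BL/6j as the strain of its astrocytes and of its pool, and the corresponding text of the other labels is cut short. Each RNA was hybridised on 1 array against a common reference pooled from organs of adult mice of both sexes. The pool held stomach, spleen, ovary or testicles, lung, liver and kidney, together with heart, brain and aorta. Arrays with the same number share a lot batch. The title of Cx43 KO 3 lacks the word KO. The labels do not say which allele was used, or whether the arrays stand for separate cultures or animals, and if they do not, the spread behind each p-value is technical.

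Values are log2 ratios of astrocytes over the pool, with base 2 assumed, centred so that 0 is the median ratio of an array. Between 36.6% and 57.6% of the 9568 features carried a ratio on an array, and an exact 0 was read as no ratio. The median of the astrocyte marker list was 1.19 and that of genes of the pooled tissues -0.605, which set the direction of the ratio. No feature is annotated to the gene of connexin43, which left the genotypes without a check by their target.

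Chromatin holds DNA wrapped on histones, and the proteins described here decide how tightly. Acetyl groups on histones go with active genes and are removed by deacetylases, while methyl groups mark active or silent genes depending on the residue. Remodellers of the SWI/SNF and CHD families slide or evict nucleosomes with energy from ATP, and Mediator and TFIID bring RNA polymerase II to promoters. Most of these genes are expressed in all tissues, with some exceptions such as the neural remodeller Chd5.

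In Cx43 KO astrocytes 0 of the 52 genes passed the test (limma, Benjamini-Hochberg adjusted p of 0.05 over all genes tested), and the smallest adjusted p among them was 0.655. The share that passed over all genes and features tested was also 0.00%. At an unadjusted p of 0.05 lay 3 of the 52, namely Brd1 and Hdac7, higher in Cx43 KO, and Hdac2, lower. This is 5.77% of the genes, against a background of 7.50%. The 2 genotypes did not overlap in 4 genes (Brd1, Hdac7, Hdac2 and Med16), 7.69% against 5.22% of all tested. Differences ran from -0.50 to 0.90, 30 higher and 22 lower, with a median of 0.04, where the median of all tested was 0.02. Only Brd1 differed by at least 1.5-fold, 1.92% of the genes against 7.08%, and 43 of the 52 lay within 0.3 of no difference on the log2 scale. The median standard error (SE) was 0.21 for these genes and 0.22 for all tested.

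The counts at an unadjusted p of 0.05 and of genes without overlap depended on single arrays. The first count was 1 without WT 1, 0 without Cx43 KO 3 and 6 of 53 without Cx43 KO 4, where 5.47%, 5.39% and 12% of all genes lay below that p. The genes counted changed as well. Without WT 1 the gene was Smarca2, and Brd1, Hdac2 and Hdac7 dropped out. Without WT 4 the genes were Brd1 and Hdac4 (9.44% of all genes). The 6 without Cx43 KO 4 included Brd1, Hdac2 and Hdac7. The second count was 9 of 53 without Cx43 KO 4 (13.3% of all genes). Leaving out both arrays of a lot batch gave a first count of 1 without batch 1 (5.35% of all genes), 2 of 60 without batch 2 (4.8%), 0 without batch 3 (3.36%) and 10 of 53 without batch 4 (15.3%). The gene without batch 1 was Smarca2, and Hdac2 was not among the 10 without batch 4. The second count was then 7 of 60 without batch 2 (13.9%) and 17 of 53 without batch 4 (26.4%). With fewer arrays, groups overlap less often by their size alone, so these counts are read against the shares of all genes. In none of these settings did a member pass the adjusted test. Full accounts by rule were given for 19 genes, Hdac4 not among them. Of these, 12 had a difference that moved by over 1.5 times or turned sign when 1 array was left out. The other 7 were Brd1, Hdac2, Hdac7, Med16, Setd3, Smarca2 and Taf5l.

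**Figure D1:**
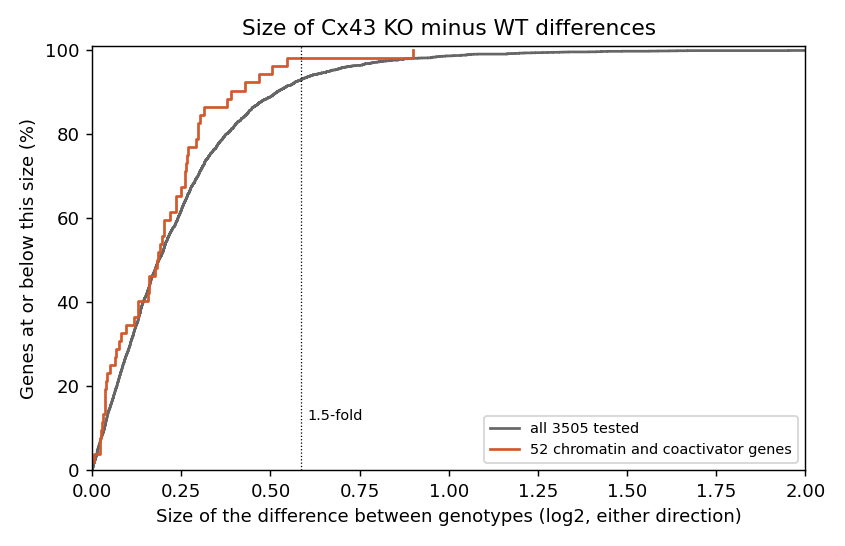
Cumulative share of genes (vertical axis, %) against the size of the Cx43 KO minus WT difference in either direction (horizontal axis, log2), for the 52 chromatin and coactivator genes (orange) and all 3505 tested (grey). The axis ends at 2, and the dotted line marks 1.5-fold, which 1.92% of the former and 7.08% of the latter reached.

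As a set these genes lay close to the middle of each array. Their median level was 0.14 on the log2 scale, against 0.02 for all tested, and 0.36 without centring. The standard deviation (SD) of the mean level across genes was 0.66, against 0.94 over all tested. Above the array median on every array with a ratio lay 8 of the 52 (15.4%), where 25.4% of all tested did so. Below it on every array lay 9 (17.3%), against 26.0%. These counts compare each gene with the middle of the array, and without centring 16 lay above 0 and 6 below 0 on every array, where 34.9% and 18.1% of all tested did so. Enough ratios for a comparison were present for 65.8% of the family on the array and for 49.8% of all named genes, the family included.

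Chd4, an ATPase of the NuRD remodelling and deacetylase complex, stood highest over the pool. The WT arrays read 0.69, 2.72, 2.41 and 3.51 in order of number. The Cx43 KO arrays read 2.52, 1.68, 3.43 and 3.27. WT 1 was the lowest array by far, and the genotypes overlapped. The mean level of Chd4, 2.53 from 1 feature, ranked 14 among the 3505 tested. Med25, a Mediator subunit bound by activators, followed, with a WT mean of 1.89 ± 0.33 (SD, n = 3) and a Cx43 KO mean of 1.83 ± 0.62 (SD, n = 4). Of the 2 features of Med25, 1 had no ratio on any array. Med11, of the Mediator head, had means of 1.32 ± 0.40 (WT, SD, n = 4) and 1.06 ± 0.05 (Cx43 KO, SD, n = 4). The fourth highest was Brd1, whose genotypes did not overlap.

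At the other end was Chd5, a remodeller known mainly from neurons and testis. It read -1.53, -1.78 and -1.61 on WT 1, 2 and 4 and -1.86, -1.59 and -1.39 on Cx43 KO 1, 3 and 4, with no ratio on the other arrays. Its highest array, at -1.39, lay below every array of the other 51 genes, of which Cbx7 on Cx43 KO 4 was the lowest at -1.34. Next came Med16 (-0.81), the mitochondrial desuccinylase Sirt5 (-0.73) and the Mediator tail subunit Med15 (-0.61). The pool contains brain, testicles and other organs, so a ratio below 0 says that a transcript is scarcer in the cultures than in that mixture, and not how abundant it is.

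**Figure D2:**
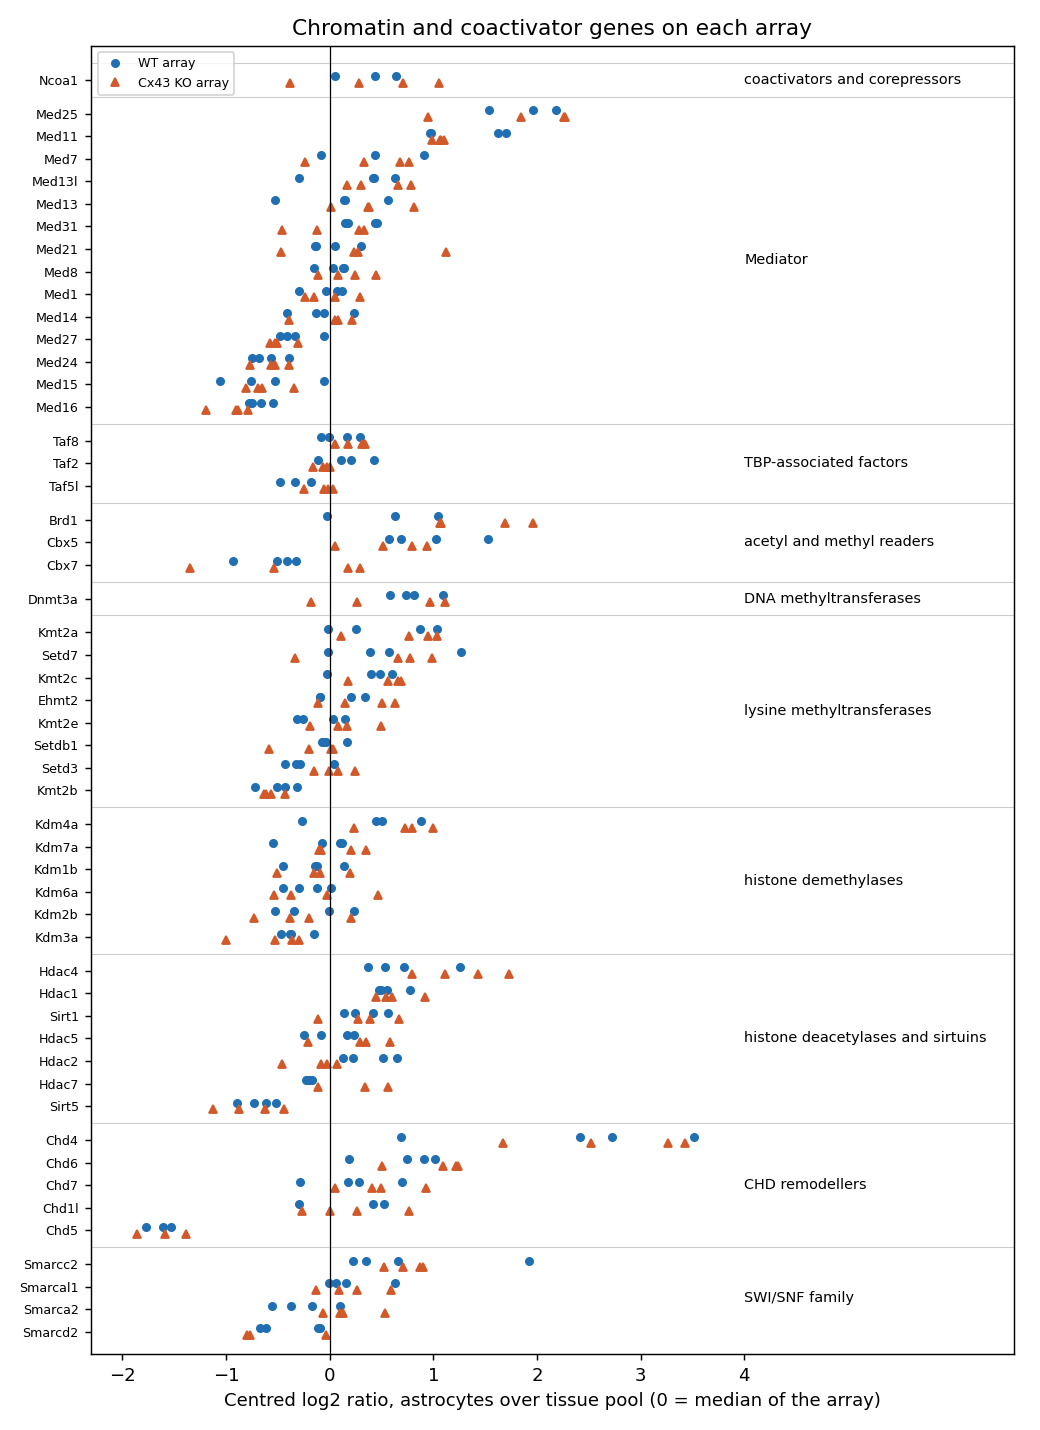
Centred log2 ratio of astrocytes over the tissue pool (horizontal axis) of the 52 genes, grouped by family, with a circle for each WT array and a triangle for each Cx43 KO array. Chd4 and Med25 lie to the right of 0 on every array and Chd5 to the left, while most genes straddle 0 and most genotypes overlap.

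Sequence before a listed transcription start was looked at for the highest and lowest gene, Chd4 and Chd5, and for 2 deacetylases that differed in opposite directions, Hdac2 and Hdac7. Each sequence below, from RefSeq on assembly GRCm38.p6, holds the 250 bases before the most upstream start in the table used, 5′ to 3′ on the strand of the gene, and capitals mark the GC box GGGCGG on either strand. The windows are chr6:125095731-125095980 (plus strand), chr4:152338401-152338650 (plus), chr10:36974294-36974543 (plus) and chr15:97844503-97844752 (minus). The annotated span of Hdac2 begins at base 36974297, so 247 bases of its window lie inside the gene as annotated, against 1 for Chd4, 5 for Chd5 and 0 for Hdac7.

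Chd4: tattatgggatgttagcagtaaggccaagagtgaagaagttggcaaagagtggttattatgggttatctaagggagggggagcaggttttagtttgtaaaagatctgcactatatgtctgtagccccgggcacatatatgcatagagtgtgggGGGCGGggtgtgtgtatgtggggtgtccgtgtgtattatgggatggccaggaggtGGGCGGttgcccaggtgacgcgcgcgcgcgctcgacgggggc
Chd5: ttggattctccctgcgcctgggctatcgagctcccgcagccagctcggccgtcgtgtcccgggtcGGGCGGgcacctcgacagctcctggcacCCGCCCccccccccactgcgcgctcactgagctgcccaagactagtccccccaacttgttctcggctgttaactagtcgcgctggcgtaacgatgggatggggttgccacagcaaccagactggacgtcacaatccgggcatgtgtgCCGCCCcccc
Hdac2: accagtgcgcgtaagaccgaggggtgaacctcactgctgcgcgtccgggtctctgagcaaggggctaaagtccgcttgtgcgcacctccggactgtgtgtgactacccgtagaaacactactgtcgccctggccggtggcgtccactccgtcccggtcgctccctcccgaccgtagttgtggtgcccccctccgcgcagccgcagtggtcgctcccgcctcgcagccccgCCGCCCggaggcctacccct
Hdac7: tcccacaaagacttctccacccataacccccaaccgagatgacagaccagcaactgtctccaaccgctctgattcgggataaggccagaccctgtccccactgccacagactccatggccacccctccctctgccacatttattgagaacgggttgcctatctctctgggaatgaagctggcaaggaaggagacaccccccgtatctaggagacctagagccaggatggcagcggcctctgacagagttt

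The highest and the lowest gene over the pool both held GC boxes, 2 in the Chd4 sequence and 3 in the Chd5 sequence. Hdac2 held 1 and 27 CG pairs in its 250 bases, whereas Hdac7 held 0 and 6 CG pairs. RefSeq lists 4 windows for Hdac7, and the other starts were not printed. In windows of 300 bases, 250 before and 50 after the start, 35 of the 45 genes that had a window held a GC box (77.8%). Over 27025 genes the share was 35.9%. The median number of CG pairs was 26 in the 45 genes and 7 in all. The 27025 are all genes with a window, measured here or not, and no share was computed among the genes tested. Some of the 45 windows, such as those of Smarcal1, Cbx7 and Hdac4, lie wholly inside the gene as annotated. The CCAAT box (CCAAT) was found in 35.6% of the 45 against 38% of all, and the TATA box (TATAAA) in 6.67% against 14.2%. Of the longer motifs, TTTCCCGC (similar to E2F sites), GCGCATGC (part of the NRF1 motif) and TGACGTCA (the cAMP response element) were found in 1 of the 45 each, against 1.11%, 2.8% and 1.85% of all genes, and TTTGGCGC in 0 against 0.537%. All motifs were searched on both strands, and a match describes the letters and not binding.

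The histone deacetylases held 2 of the 3 smallest p-values, in opposite directions. Hdac2, a class I deacetylase of the NuRD, Sin3 and CoREST complexes, read 0.65, 0.22, 0.13 and 0.51 on WT 1 to 4. The Cx43 KO arrays read -0.08, 0.07, -0.46 and -0.03. Every Cx43 KO array lay below every WT array, and Hdac2 was lower in all 4 lot batches. The difference was -0.50 (SE 0.19, adjusted p = 0.655). Hdac7, a class IIa deacetylase that binds MEF2 factors, read -0.19, -0.22, -0.22 and -0.17 in WT and 0.56, 0.35 and -0.11 on Cx43 KO 1, 3 and 4. The WT arrays were within a narrow range, and Cx43 KO 4 lay just above them. Its difference was 0.47 (SE 0.20, adjusted p = 0.658).

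The other class IIa genes were higher in Cx43 KO by value. Hdac4 read 0.37, 0.72, 0.53 and 1.26 in WT and 1.73, 1.43, 1.11 and 0.79 in Cx43 KO, a difference of 0.55 (SE 0.26, adjusted p = 0.666). WT 4 lay above Cx43 KO 3 and 4, while the other WT arrays lay below every Cx43 KO array. The account of Hdac4 was added after its values were seen. Hdac5 read -0.25, 0.23, -0.08 and 0.17 in WT and 0.35, 0.30, 0.58 and -0.21 in Cx43 KO, a difference of 0.23 (SE 0.21). Cx43 KO 4 was the lowest Cx43 KO array for Hdac4, Hdac5 and Hdac7. Without it their differences were 0.70, 0.39 and 0.65, with adjusted p of 0.328, 0.447 and 0.263. Leaving out the lowest Cx43 KO array of a gene raises its difference in any case. Without Cx43 KO 4, 12% of all genes lay at an unadjusted p of 0.05, against 7.5% with all arrays. Hdac1, the close relative of Hdac2, had a WT mean of 0.58 ± 0.14 (SD, n = 4) and a Cx43 KO mean of 0.63 ± 0.21 (SD, n = 4). Its 2 features differed in opposite directions, by -0.25 and 0.36, so the mean of 0.05 joins unlike values. Of the sirtuins, which need NAD, nuclear Sirt1 differed by -0.04 and Sirt5 by -0.07.

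**Figure D3:**
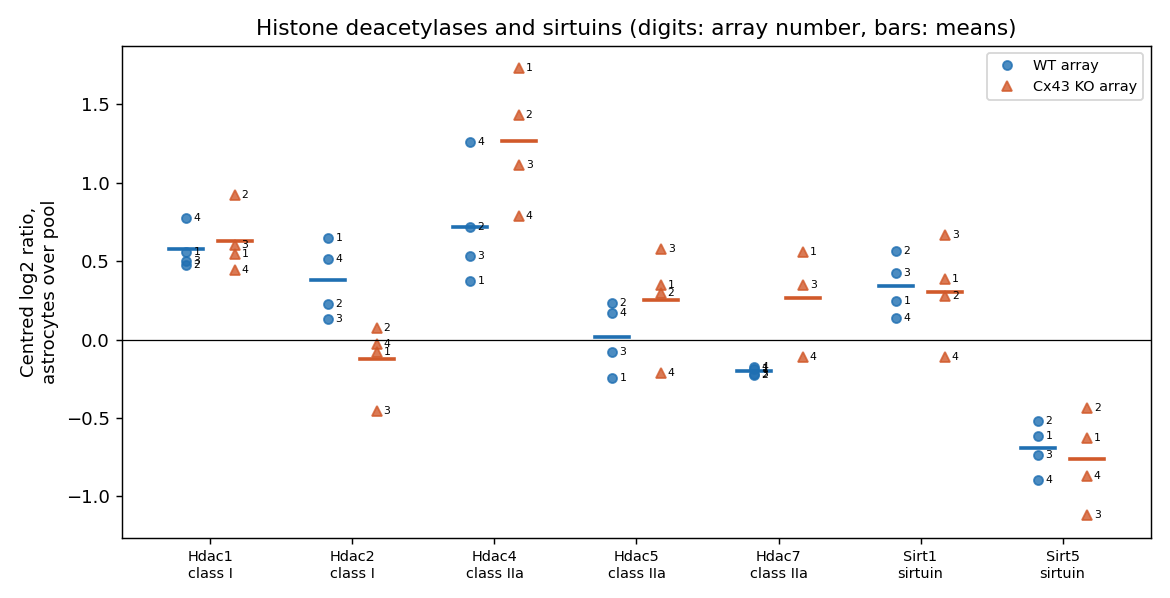
Centred log2 ratio (vertical axis) of each deacetylase and sirtuin on the WT (circles) and Cx43 KO (triangles) arrays, with digits for the array number and bars for the genotype means. Hdac2 is lower and Hdac7 higher on every Cx43 KO array with a ratio, and Cx43 KO 4 is the lowest triangle for Hdac1, Hdac4, Hdac5, Hdac7 and Sirt1.

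Among proteins that read histone marks, Brd1 had the largest difference of the 52. Brd1 is the scaffold of an acetyltransferase complex with a bromodomain and PHD fingers. It read -0.03, 0.63 and 1.04 on WT 1, 3 and 4 and 1.07, 1.06, 1.96 and 1.69 on Cx43 KO 1 to 4. The lowest Cx43 KO array, at 1.06, lay just above the highest WT array, at 1.04. Brd1 differed by 0.90 (SE 0.32, adjusted p = 0.655), or 1.86-fold, and it had no ratio on WT 2. Of its 3 features 1 carried all these ratios, except that a second added a value on WT 1. Cbx5, the heterochromatin protein HP1 alpha, read 1.02, 0.57, 0.69 and 1.53 in WT and 0.80, 0.52, 0.94 and 0.05 in Cx43 KO. The genotypes overlapped, and the difference of -0.38 (SE 0.26, adjusted p = 0.776) became -0.01 in the setting that moved it most, without both arrays of lot batch 4. Cbx7, a Polycomb subunit that binds trimethylated H3K27, lay below the array median in WT (-0.54 ± 0.27, SD, n = 4). In Cx43 KO it spread from -1.34 on array 4 to 0.30 on array 2.

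Of the SWI/SNF family, 4 of 7 genes could be followed. Smarca2, one of the alternative ATPases of the complex (BRM), read 0.10, -0.55, -0.38 and -0.17 in WT and 0.13, 0.54, 0.10 and -0.06 in Cx43 KO. Only WT 1 reached the range of the Cx43 KO arrays, and Smarca2 was higher in all 4 lot batches. Its difference was 0.43 (SE 0.20, adjusted p = 0.666). Smarcd2, an accessory subunit, read -0.09, -0.68, -0.11 and -0.61 in WT and -0.80, -0.77 and -0.03 on Cx43 KO 1, 3 and 4. Cx43 KO 4 was the highest and Cx43 KO 1 the lowest of all its arrays, and the difference was -0.16 (SE 0.26, adjusted p = 0.92), positive without lot batch 1 or 3. The core subunit Smarcc2 differed by -0.04. Its 2 features had unlike levels, 1.31 and -0.02, and differed by 0.51 and -0.13. On WT 2 the lower feature had no ratio, and the gene read 1.93 there against 0.23 to 0.65 on the other WT arrays. The annealing helicase Smarcal1 differed by -0.0062.

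In the CHD family 4 of 5 genes were higher in Cx43 KO by value. Chd4 differed by 0.39 (SE 0.57, adjusted p = 0.902), and by -0.16 without WT 1, its lowest array. Its WT arrays had an SD of 1.19 (n = 4). Chd6 read 0.74, 0.91, 0.19 and 1.01 in WT and 1.24, 1.22, 1.10 and 0.51 in Cx43 KO, a difference of 0.30 (SE 0.24, adjusted p = 0.793). Cx43 KO 1 to 3 lay above every WT array and Cx43 KO 4 did not. The difference was 0.13 without WT 3 and 0.47 without Cx43 KO 4. The 2 features of Chd6 had unlike levels, 0.58 and 1.29, and the higher had no ratio on WT 3. With 1 feature per gene the difference of Chd6 was 0.21. Chd7, the remodeller mutated in CHARGE syndrome, read -0.29, 0.18, 0.29 and 0.70 in WT and 0.50, 0.40, 0.93 and 0.05 in Cx43 KO. Its difference was 0.25 (SE 0.25, adjusted p = 0.835), and its 2 features differed by -0.12 and 0.50. Without WT 1 the difference of Chd7 was 0.08 and without WT 4 it was 0.41. Chd5 differed by 0.03 and Chd1l, a remodeller activated by poly(ADP-ribose), by -0.02.

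Genes with the names of lysine methyltransferases, of which not all are known to act on histones, were 5 higher and 3 lower, and all 8 overlapped between genotypes. Setd3, which methylates a histidine of actin, read -0.43, 0.05, -0.29 and -0.32 in WT and -0.01, -0.15, 0.25 and 0.08 in Cx43 KO. WT 2 lay among the Cx43 KO arrays and the other WT arrays below them, and the difference was 0.29 (SE 0.17, adjusted p = 0.753). Kmt2e, a reader relative of the trithorax genes, read -0.32, 0.15, -0.26 and 0.03 in WT and 0.49, 0.16, 0.08 and -0.19 in Cx43 KO. The difference of 0.24 (SE 0.20, adjusted p = 0.804) joined 3 features at 0.45, -0.11 and 0.19, and was 0.12 without Cx43 KO 1. The H3K4 methyltransferases Kmt2a, Kmt2c and Kmt2b differed by 0.18, 0.16 and -0.07. Ehmt2 and Setdb1, which methylate H3K9, differed by 0.20 and -0.18. Setd7 differed by -0.03, with its highest value on WT 4 (1.27) and its lowest on Cx43 KO 4 (-0.33).

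Demethylases were 4 higher and 2 lower. Kdm4a, which removes methyl groups from H3K9 and H3K36, read 0.45, 0.51, -0.26 and 0.88 in WT and 0.73, 0.79, 1.00 and 0.24 in Cx43 KO. The genotypes overlapped, and its difference was 0.30 (SE 0.26, adjusted p = 0.815), and -0.0245 without lot batch 3. Kdm3a, an H3K9 demethylase, read -0.15, -0.38, -0.47 and -0.37 in WT and -0.30, -0.37, -0.52 and -0.997 in Cx43 KO. All 8 arrays lay below 0, with Cx43 KO 4 lowest, and the difference was -0.20 (SE 0.19, adjusted p = 0.826), or -0.05 without that array. Kdm7a, Kdm6a (the X-linked H3K27 demethylase UTX) and Kdm1b differed by 0.19, 0.10 and 0.0039, and Kdm2b by -0.12. Dnmt3a, which sets new DNA methylation, read 0.58, 0.81, 1.09 and 0.74 in WT and 0.27, -0.18, 0.96 and 1.11 in Cx43 KO. Cx43 KO 1 and 2 lay below the WT arrays and Cx43 KO 4 just above them. The difference of -0.27 (SE 0.28, adjusted p = 0.839) joined 2 features at 0.55 and -0.50. The former had no ratio on WT 2, WT 3 and Cx43 KO 2. In the latter, measured on all 8 arrays, Cx43 KO 4 (1.04) lay below WT 1 (1.31) and WT 3 (1.09). Leaving out single arrays moved the difference of the gene from -0.03 without Cx43 KO 2 to -0.46 without Cx43 KO 4.

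**Figure D4:**
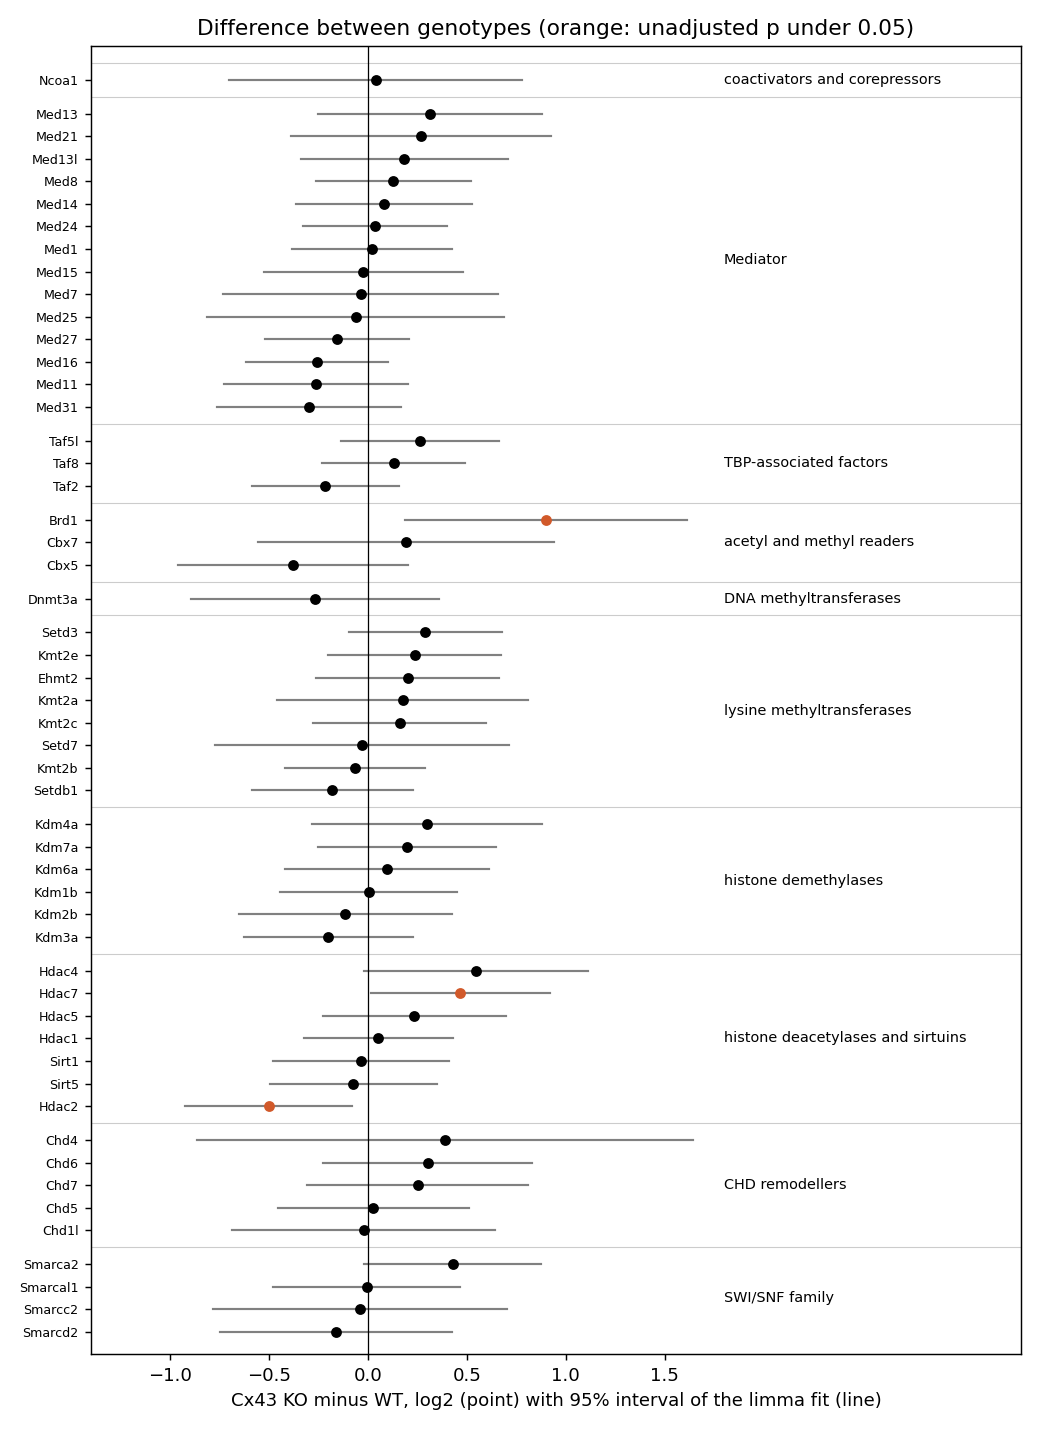
Cx43 KO minus WT difference on the log2 scale (horizontal axis) of the 52 genes by family, with the 95% interval of the limma fit as a line and orange points for an unadjusted p under 0.05. Brd1, Hdac7 and Hdac2 are the orange points, and every other interval includes 0.

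Mediator relays signals from activators to RNA polymerase II, and 14 of its 16 array genes could be followed, 7 higher and 7 lower. Tail subunits, which contact activators, were spread over the range of the family. Med15, Med16, Med24 and Med27 had mean levels of -0.61, -0.81, -0.58 and -0.40, all below the array median on every array, and Med25 lay far above it. Med16 read -0.78, -0.66, -0.75 and -0.54 in WT and -0.90, -1.20, -0.88 and -0.79 in Cx43 KO. The genotypes did not overlap, but the highest Cx43 KO array, at -0.79, was next to the lowest WT array, at -0.78. Its difference was -0.26 (SE 0.16, adjusted p = 0.753). Of the tail genes 4 were lower in Cx43 KO by value and 1, Med24, higher by 0.03.

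The middle subunit Med31 read 0.18, 0.44, 0.46 and 0.15 in WT and 0.29, 0.33, -0.12 and -0.46 in Cx43 KO. The 2 lowest arrays were Cx43 KO 3 and 4, and the rest overlapped, with a difference of -0.30 (SE 0.21, adjusted p = 0.777), or -0.14 without Cx43 KO 4. Med21, also of the middle module, spread from -0.47 on Cx43 KO 3 to 1.12 on Cx43 KO 1 and differed by 0.27. Med1, the subunit that binds nuclear receptors, differed by 0.02, and Med7 by -0.04. Med13 and Med13l, which hold the kinase module to the core, differed by 0.31 and 0.18, and the scaffold Med14 by 0.08. In the head module Med11 differed by -0.26 and Med8 by 0.13.

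**Figure D5:**
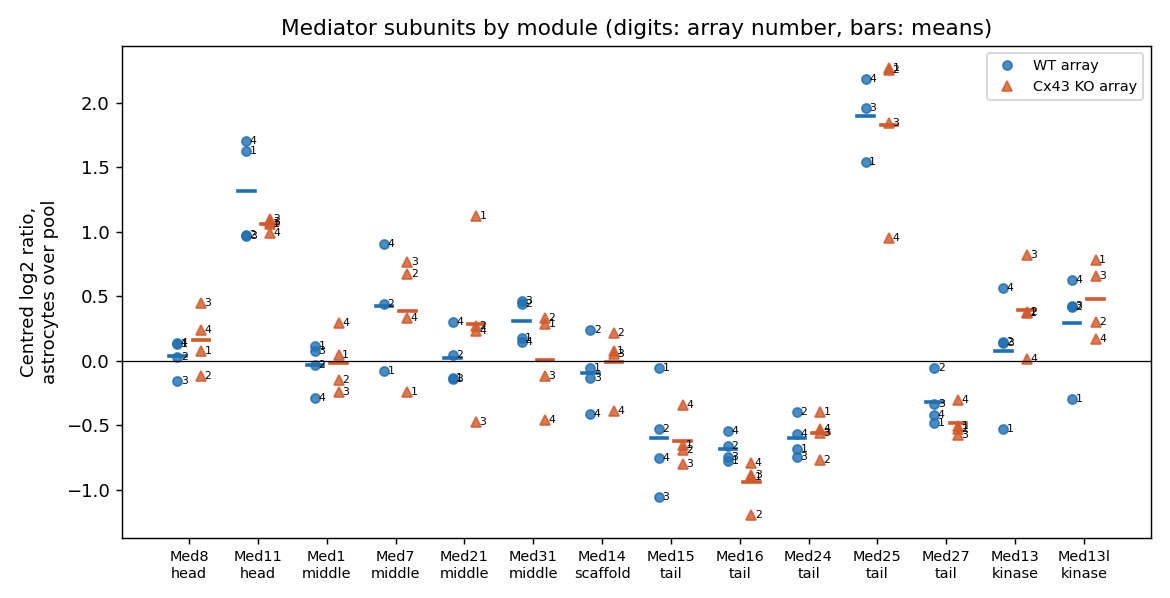
Centred log2 ratio (vertical axis) of the 14 Mediator genes ordered by module, with WT arrays as circles, Cx43 KO arrays as triangles, digits for the array number and bars for the genotype means. The tail genes Med15, Med16, Med24 and Med27 lie below 0 and Med25 and Med11 above it, in both genotypes.

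TFIID and related factors gave 3 genes of 8, and nuclear receptor cofactors 1 of 4. Taf5l, a subunit of the SAGA acetyltransferase, read -0.33, -0.48 and -0.18 on WT 1, 2 and 4 and 0.03, -0.05, -0.25 and -0.02 in Cx43 KO. Cx43 KO 3 lay among the WT arrays, and the difference was 0.26 (SE 0.18, adjusted p = 0.776). Taf2, which contacts the initiator element, read 0.21, 0.11, -0.12 and 0.42 in WT and -0.02, 0.0024, -0.16 and -0.07 in Cx43 KO. It was lower in all 4 lot batches, but WT 3 lay within the Cx43 KO range, and the difference was -0.22 (SE 0.17, adjusted p = 0.786), or -0.13 without WT 4. Of the 2 features of Taf8, 1 had a ratio only on WT 1 (0.63), and the feature with all 8 values differed by 0.21. With both averaged, Taf8 was higher in all 4 lot batches, by 0.13 in the fit. Such agreement over lot batches was found in 5 of 43 genes with all values, Hdac2, Med16, Smarca2, Taf2 and Taf8, where 16% of all such genes showed it. The coactivator Ncoa1 (SRC-1) read 0.44, 0.05 and 0.64 on WT 1, 2 and 4 and 0.70, 1.06, 0.28 and -0.38 in Cx43 KO. Cx43 KO arrays were both its highest and its lowest, and the difference was 0.04 (SE 0.33, adjusted p = 0.99), with the sign changing when single arrays were left out.

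The differences varied between lot batches. Within lot batches 1 to 4 the median Cx43 KO minus WT difference of the measured members was 0.17, -0.02, 0.18 and -0.25, where the medians of all genes were 0.035, -0.02, 0.05 and -0.03. In lot batch 4, 32 of 52 were lower. The share of measured members higher in Cx43 KO was 63.5%, 47.8%, 62.5% and 38.5% in lot batches 1 to 4. Of all genes, 52.5%, 48.2%, 54.6% and 47.7% were higher. Among the 43 genes with all values, Cx43 KO 4 was the lowest Cx43 KO array for 23, against 37.1% of all genes, and WT 4 the highest WT array for 20, against 31.2%. Cx43 KO 1 was the lowest Cx43 KO array for 0 of the 43, against 16.1%.

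The same array stood apart in markers of cell types. The mean of the astrocyte markers with all values, 3 of 18 listed, was 0.46 on Cx43 KO 4 and 1.75 to 2.20 elsewhere, and Slc1a2 was listed at 0 on every array. For microglia and macrophage markers (6 of 20) it was 2.10 there, against 0.50 to 1.22 in WT and 0.06 to 0.99 on the other Cx43 KO arrays, with Fcer1g, Ctss, Coro1a and Ptprc listed at 0. Fibroblast, meningeal and mural markers (6 of 17, Thbs2 listed at 0) gave 2.08 there, against 0.12 to 1.53 in WT and -1.04 to 0.21 on the other Cx43 KO arrays. The mean of neuronal markers (3 of 16) was lowest on that array, at -1.88, and the 1 measured oligodendrocyte gene of 12, Cnp, read -1.53. Markers of dividing cells (9 of 28) read 0.68, 0.26, 0.23 and -0.12 in WT and -0.58, -0.72, -0.04 and -0.08 in Cx43 KO. The part of these cell types in the differences above was not tested, and in bulk RNA fewer cells of a type and less RNA per cell cannot be told apart.

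No chromatin or transcription gene outside the name patterns passed the test either. Of 296 such genes in 8 lists, some of which share a gene, 135 were on the array and 74 were tested, 45 higher and 29 lower, with a median difference of 0.06. At an unadjusted p of 0.05 lay 4 of the 74, or 2 in each direction, where 7.50% of all tested lay below that p. Pcgf2, a Polycomb repressive complex subunit, read 0.59, 1.27, 1.00 and 1.15 in WT and 0.46, 0.14, 0.21 and 0.75 in Cx43 KO, a difference of -0.61 (SE 0.21, adjusted p = 0.655). Cx43 KO 4 lay above WT 1, and the other Cx43 KO arrays below every WT array. Hmgb2, a chromatin protein of dividing cells, differed by -0.56 (SE 0.21), Gtf2h1, a TFIIH subunit, by 0.59 (SE 0.21, 3 arrays per genotype), and the histone chaperone Set by 0.44 (SE 0.18). None of the 4 passed over all genes tested.

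By list, acetyltransferases and their partners were 5 higher and 7 lower of 12 tested, with a median difference of -0.03. Partners in the NuRD complex of Chd4 and Hdac2, and in the Sin3 and CoREST complexes of Hdac2, were 7 higher and 4 lower of 11 (median 0.05). Other remodellers were 8 higher and 2 lower of 10 (median 0.11), and Polycomb and heterochromatin partners 3 and 4 of 7 (median -0.03). Other methylation writers and erasers were 7 and 3 of 10 (median 0.09), and histone variants and chaperones 3 and 2 of 5 (median 0.26). General transcription and Mediator partners were 9 and 6 of 15 (median 0.01), and other nuclear receptor cofactors 5 and 1 of 6 (median 0.12). Over all 3505 tested, 52.6% were higher, so no list is called apart from the rest by these counts.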

How the data were processed

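The deposited values are signed log ratios of the 2 channels of each array, used as log2 ratios. For the log base, the dyes, background correction and normalization, the authors' choices are not stated in any label or header read. Exact 0 was read as no ratio, and the median of the remaining ratios was subtracted from each array. Names came from the platform annotation, in which 7307 features have 1 symbol, 318 several and 1943 none. All 52 members matched assembly GRCm38.p6 by gene number. Features of a gene were averaged within an array, so arrays can differ in the features averaged. Of 10 members with more than 1 feature measured in both genotypes, 6 had features of opposite sign (Chd7, Dnmt3a, Hdac1, Kdm7a, Kmt2e and Smarcc2).

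Genes measured on 3 or more arrays of both genotypes (2900 named genes and 605 features without a single symbol) were fitted with limma 3.58.1 in R 4.3.3 (lmFit and eBayes, two-sided, no block, Benjamini-Hochberg over all 3505). The fit was tested on simulated data with planted differences larger than that of any member. That test does not show how often differences of the members' size would be found. The members, families and lists were chosen with earlier results of these data known. Members with a full account were the 2 with the smallest p in each family, all at an unadjusted p of 0.05 and Chd4. These are the 19 followed through the other settings. Hdac4 was added later and is not counted among the 19. The highest and lowest 4 in level are named. Of the genes outside the patterns, those at an unadjusted p of 0.05 are named. The labels give same-numbered arrays of both genotypes 1 lot batch, which pairs them. After subtraction of genotype means, paired arrays correlated at r = -0.18, 0.19, -0.13 and -0.19 across 2596 genes, which are not independent replicates. Precision is limited by the number of arrays, with a median 95% interval of 0.47 to either side of a member's difference.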

Additional observations from a re-analysis of the deposited data

How the results depend on the processing

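Under 22 other settings the number of members that passed the adjusted test was 0 in each, with 43 to 79 members tested. At an unadjusted p of 0.05 the 3 members became 1 when only genes with 8 values were used (7.67% of all genes), 6 with array weights (13.4% of all genes then lay below that p) and 0 to 10 over leaving out arrays or lot batches. With lot batch as a replicate block the counts were 0 by the adjusted and 2 by the unadjusted p (Brd1 and Hdac2, with 5.59% of all genes below it), so the block changed no call. The 4 members without overlap between genotypes became 2 without centring (Brd1 and Hdac2, with 4.76% of all genes), 2 with 8 values only (Hdac2 and Med16, with 4.2%) and 4 to 17 over leaving out arrays or lot batches (9 without Cx43 KO 4, 7 and 17 without lot batches 2 and 4). With quantile normalization the members without overlap were Brd1, Hdac2, Hdac7 and Med11 (4.56% of all genes). With scale normalization they were Hdac2, Hdac7 and Med11 (4.82%). Leaving out arrays or lot batches moved the median difference between -0.02 and 0.17 and the median level between 0.10 and 0.16. That level was 0.36 without centring and 0.0090 with exact 0 read as a ratio.

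Of the 19 genes with a full account, the sign turned for Chd7 with 1 feature per gene (-0.12), Chd4 with quantile normalization (-0.043), and, over leaving out arrays or lot batches, Chd4 (-0.16 to 0.78 over WT arrays, -0.090 to 0.87 over lot batches), Ncoa1 (-0.12 to 0.17 over WT arrays, -0.17 to 0.30 over Cx43 KO arrays, and -0.34 to 0.44 over lot batches, -0.026 without lot batch 1), Kdm4a (-0.0245 to 0.61 over lot batches) and Smarcd2 (0.066 and 0.044 without lot batches 1 and 3, -0.49 without batch 4). Hdac2 ran from -0.62 to -0.39, Hdac7 from 0.32 to 0.66 and Brd1 from 0.61 to 1.15 over leaving out arrays or lot batches, and Brd1 was 0.35 with exact 0 read as a ratio. Of the other members, 7 turned sign without Cx43 KO 4, namely Setd7 (to 0.25), Med25 (0.23), Smarcal1 (0.11), Sirt1 (0.10), Chd1l (0.04), Med1 (-0.08) and Chd5 (-0.08). Other settings were not followed for single genes outside the 19. The cause of these changes was not tested.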

Other observations

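Among the 27 members with too few ratios for a comparison, 14 were listed at 0 on every array, namely Brd2, Chd1, Ing3, Kdm3b, Kdm4b, Kdm5a, Med6, Med26, Ncoa2, Ncoa4-ps, Smarce1, Taf1a, Taf1d and Taf4b. Such an entry may be a failed measurement and does not show that the gene is silent. Chd3, another ATPase of NuRD, read 0.34, 0.57 and 1.64 on WT 1, 3 and 4 and 1.30 and 2.98 on Cx43 KO 1 and 3. Smarca4 (BRG1), the ATPase that can replace Smarca2, read 0.80 and 1.73 on WT 1 and 4 and 1.99 on Cx43 KO 4. Setd5 spread from -0.88 on WT 1 to 1.62 on Cx43 KO 3 over 5 arrays. Kmt5b, which methylates H4K20, read 1.02, 0.89 and 0.44 on WT 1, 3 and 4 and 0.70 and 0.14 on Cx43 KO 3 and 4. Ezh1, a Polycomb methyltransferase, read -0.40 and -0.78 on WT 1 and 4 and -0.90 and -0.46 on Cx43 KO 3 and 4. The nuclear sirtuin Sirt6 lay below the array median on all 6 arrays with a ratio, from -0.66 to -0.09. Mitochondrial Sirt3 lay above it on 3 arrays, from 0.30 to 0.91. Hdac11 read between -0.79 and -0.36 on 4 arrays. Cbx2, Ncoa6, Smarcad1, Taf11 and Taf12 had a ratio on 1 to 5 arrays.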
